A study of Homo sapiens with 30 samples.

Results

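The replication-dependent histone genes supply the bulk of the histones that package newly copied DNA. The members were the protein-coding genes in GENCODE release 44 on GRCh37 whose symbol is H2AC, H2BC, H3C or H4C followed by digits, together with the linker histone genes H1-1 to H1-6. This rule found 64 genes among 20098 protein-coding genes on the autosomes and chromosome X: 6 H1, 16 H2A, 16 H2B, 13 H3 and 13 H4 genes. The study profiled chromatin of MDA-MB-231, an established triple-negative breast cancer cell line, by ChIP-seq. Parental cells were profiled for SAP30, SIN3A and SIN3B, and parental and SAP30-KO1 cells for RNA polymerase II (Pol II), H3K4me3 and H3K9Ac, with 2 libraries in each of these 9 groups. SAP30-KO1 cells carry a CRISPR/Cas9 knockout of SAP30 and are, per the study's methods, a mixture of several single knockout clones. No other treatment or time point separated the groups, and the peak lists give no measure of whether SAP30 protein was lost.

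Core histones H2A, H2B, H3 and H4 form the nucleosome, and H1 binds the linker DNA between nucleosomes. Genes of this class are transcribed mainly in S phase from nuclear bodies organised by NPAT, most of them lack introns, and their mRNAs end in a conserved stem-loop instead of a poly(A) tail. SAP30 is a subunit of the SIN3 histone deacetylase complex, whose scaffold is SIN3A or SIN3B. H3K4me3 and H3K9Ac are histone marks found at active promoters.

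The members fell into 6 places on 3 chromosomes when neighbours over 500 kb apart were separated. On chromosome 6 there were 51 genes, of which 30 lay in the first cluster (chr6:25723625-26285866), 5 in the second (chr6:27093676-27115341) and 16 in the third (chr6:27775257-27861669). On chromosome 1 there were 12 genes, of which 10 lay in the large cluster (chr1:149754245-149859515) and 2, H2AC25 and H2BC26, in the small cluster (chr1:228622478-228650805). H4C16 stood alone on chromosome 12 (chr12:14920933-14924065).

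The stem-loop was used to check the label, because the rule had used only gene symbols. The 16-base histone stem-loop was searched on the sense strand in the 150 bases after the stop codon of each member's canonical transcript. It was present in 64 of 64 genes, at a median of 35 bases after the stop codon (range 22 to 67), in 10 distinct versions. The most frequent version occurred in 38 genes. The 5 examples below are GRCh37 sequence in the sense direction, with the 16-base stem-loop in capitals and 5 flanking bases at each side, and they show the linker and core families side by side.
H1-4: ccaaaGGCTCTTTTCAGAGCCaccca
H1-1: ccaacGGCTCTTTTAAGAGCCaccta
H2AC6: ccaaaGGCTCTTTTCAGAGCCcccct
H3C2: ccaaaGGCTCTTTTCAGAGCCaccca
H4C3: ccaaaGGCCCTTTTCAGGGCCgctca
The stem-loop coordinates were chr6:26157323-26157338 for H1-4 (plus strand), chr6:26017265-26017280 for H1-1 (minus strand), chr6:26124897-26124912 for H2AC6 (plus strand), chr6:26031825-26031840 for H3C2 (minus strand) and chr6:26104545-26104560 for H4C3 (plus strand). All 5 lie in the 3′ untranslated region.

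The promoters shared sequence features as well. From 250 bases before to 50 bases after the canonical start site, on both strands, CCAAT was found at 55 of 64 members (85.9%, against 35.9% of all protein-coding promoters), and TATAAA, the TATA box, at 43 (67.2%, against 9.82%). The octamer ATTTGCAT, which POU2F1 (OCT1) recognises, was found at 12 of 16 H2A and 12 of 16 H2B genes and at no H1, H3 or H4 gene (24 members, 37.5%, against 1.58% of promoters). AAACACA, the H1 box, was found at 6 of 6 H1 genes, 1 H2A gene and 2 H3 genes (14.1% of members against 4.20% of promoters). The E2F-type words TTTCCCGC and TTTGGCGC were at 2 members, both H4 genes (3.13% against 3.07%). The windows of the 10 divergent H2A and H2B pairs described below overlap, so a word between their start sites can count for both genes. Between H2BC4 and H2AC6, 1 TATAAA and 1 octamer count for both. The counts of members are therefore not counts of separate promoters or words. The GC content of these 300-base windows had a median of 43.8% over the members and 63.7% over all protein-coding genes. No words overlapped one another in the sequences printed next.

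The promoters of 4 places are printed because the peak lists separate them. H2BC4 and H2AC6 are a divergent pair with Pol II, SAP30, SIN3A and SIN3B summits, H3C2 had the best mean parental Pol II rank of the H3 genes, and H1-4 and H1-1 are linker histone genes with and without summits. The pair is given from start site to start site (chr6:26124155-26124399, plus strand), and the others for the 200 bases before the start site (H3C2 at chr6:26032328-26032527, minus strand; H1-4 at chr6:26156357-26156556, plus strand; H1-1 at chr6:26018016-26018215, minus strand). All are GRCh37, 5′ to 3′ on the strand named, with the words above or their reverse complements in capitals.
H2BC4/H2AC6: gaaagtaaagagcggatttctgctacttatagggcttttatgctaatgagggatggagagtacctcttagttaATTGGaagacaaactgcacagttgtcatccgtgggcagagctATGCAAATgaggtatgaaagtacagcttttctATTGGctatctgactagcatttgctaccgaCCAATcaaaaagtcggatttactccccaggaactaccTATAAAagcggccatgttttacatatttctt
H3C2: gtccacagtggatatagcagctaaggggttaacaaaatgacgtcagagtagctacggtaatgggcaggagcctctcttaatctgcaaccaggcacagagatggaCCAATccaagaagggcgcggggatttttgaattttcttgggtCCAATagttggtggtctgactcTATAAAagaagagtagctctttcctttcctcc
H1-4: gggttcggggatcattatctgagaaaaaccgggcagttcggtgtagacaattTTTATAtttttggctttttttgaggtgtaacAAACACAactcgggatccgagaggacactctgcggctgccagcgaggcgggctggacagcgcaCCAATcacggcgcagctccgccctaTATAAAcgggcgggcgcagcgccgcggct
H1-1: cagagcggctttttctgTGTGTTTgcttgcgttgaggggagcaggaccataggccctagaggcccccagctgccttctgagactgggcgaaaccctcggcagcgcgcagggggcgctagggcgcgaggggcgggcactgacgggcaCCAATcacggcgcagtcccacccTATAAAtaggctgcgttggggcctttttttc
H1-4 and H1-1 both held the H1 box, a CCAAT word and a TATA box, although the lists gave H1-4 a summit in every library and H1-1 none.

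Each list holds 1 summit per peak, and the lists held 10861 (SIN3A) to 54622 (H3K9Ac) summits. A gene was counted as having a promoter peak where a summit lay within 1000 bp of a start site, and the best-scored such summit was given its rank within its own list as a percentage, so that 0 is the strongest and 100 the weakest peak of that list. A broad peak over neighbouring genes leaves 1 summit, so a gene without a summit may still lie under a peak. Pol II summits were present in all 4 Pol II libraries at 6 of 6 mesenchymal markers of this line (VIM, CD44, AXL, CAV1, ZEB1, MSN) and in none at PTPRC, CD3E, ALB and COL1A1, markers of blood, liver or stromal cells. Of 7 luminal or epithelial markers, EPCAM and KRT8 had Pol II summits in all 4 libraries and 5 had none.

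About as many members as other genes carried Pol II, but those that did carried it near the top of the list. In parental cells 34 of 64 members (53.1%) had a Pol II promoter peak in both replicates, beside 57.7% of all protein-coding genes. Their median rank was 0.832 in replicate 1 (35 members) and 0.63 in replicate 2 (34 members), whereas the medians over all genes with a Pol II promoter peak were 27.2 and 24.8. Of the members with a Pol II peak, 18 and 19 were in the best 1% of the parental lists (51.4% and 55.9%), beside 1.60% and 1.81% of genes with a peak. The histone genes made up 19 of the 188 genes whose mean parental rank was in the best 1%, or 10.1%, although they are 0.318% of the protein-coding genes. Among the 50 genes with the best mean parental Pol II rank there were 10 histone genes, and among the 50 best in SAP30-KO1 cells there were 6.

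The other targets did not rank this way. No member lay in the best 1% of any SAP30, SIN3A, SIN3B, H3K4me3 or H3K9Ac list. H3K4me3 was found at 36 members in both parental replicates (56.3%, beside 63.8% of all genes), with a median rank of 46.3 and 51.5 against 24.2 and 26.1 over all genes. H3K9Ac was found at 32 members (50%, beside 61.4%), with a median rank of 18.7 and 14.4 against 12.1 and 12.5. In 27 members all 3 of Pol II, H3K4me3 and H3K9Ac were found in both parental replicates (42.2%, against 56.1% of all genes). Counting members does not count independent promoters, since the 34 Pol II members rested on 24 distinct sets of best summits. Differences between members and other genes were described by counts and medians, with no test, because members share promoters and are not replicates.

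**Figure D1:**
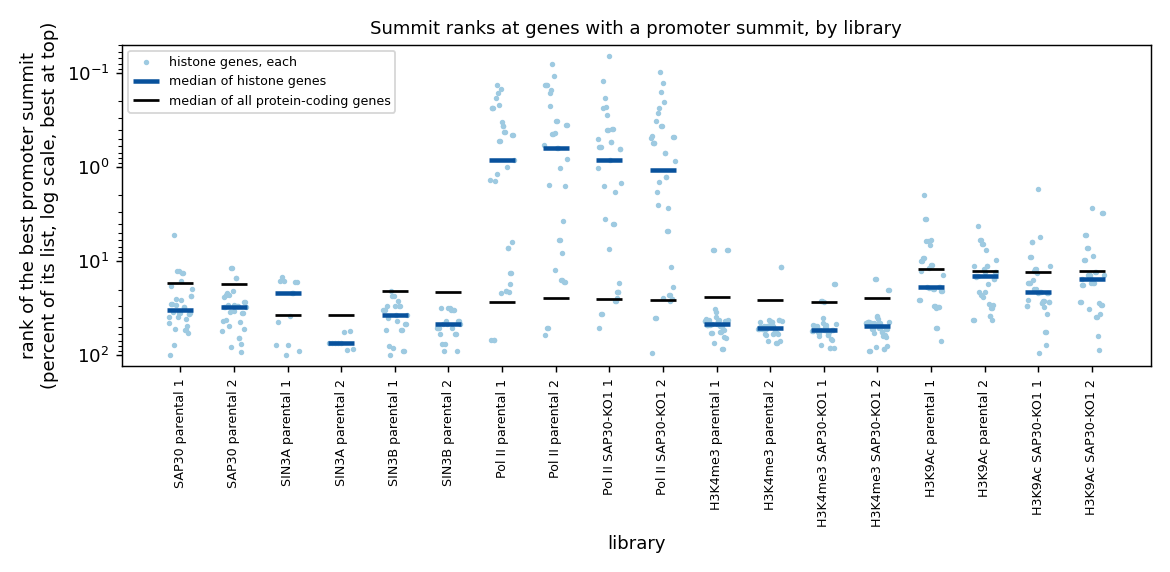
Rank of the best promoter summit (percent of its list, log scale, best at top) in each of the 18 libraries. Points are histone genes with a promoter summit, blue bars their median and black bars the median of all protein-coding genes with one. In the 4 Pol II libraries the histone medians lie between 0.63 and 1.06, and in the H3K4me3 libraries they lie below the median of all genes.

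Of the H1 genes, H1-4 and H1-2 had Pol II peaks and H1-1, H1-3, H1-5 and H1-6 had no summit in any of the 18 lists. H1-6 is known as the testis linker histone. At H1-4 (chr6:26156557-26157343) the Pol II rank was 0.147 and 0.107 in parental cells and 0.0664 and 0.129 in SAP30-KO1 cells. At H1-2 it was 0.162 and 0.15 in parental cells and 0.229 and 0.0972 in SAP30-KO1 cells. At both genes the values of the 2 lines overlapped.

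H2A and H2B genes had Pol II peaks most often, at 11 of 16 in each family in both parental replicates. H2AC20 and H2AC21 shared the best parental rank of the H2A genes and H2BC21 that of the H2B genes, because the 3 neighbours on chromosome 1 shared 1 summit (0.234 and 0.133). That summit lay 120 and 115 bp downstream of the H2AC20 start site. From the H2AC21 start site it lay 927 and 932 bp downstream, past the end of that 497-bp gene. The worst rank among H2A genes was that of H2AC19 on chromosome 1, at 68.5 and 60.4. The worst among H2B genes was that of H2BC1, a testis-type H2B gene, at 68.5 and 50.7, and H2AC1, its divergent partner, had the same summit. Neither H2AC1 nor H2BC1 had a SAP30, SIN3A, SIN3B or H3K9Ac summit in any list. H2A genes without a Pol II summit in parental cells were H2AC7, H2AC8, H2AC16 and H2AC25, and H2AC4 had one in replicate 1 only. Such H2B genes were H2BC3, H2BC5, H2BC9, H2BC10 and H2BC26.

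H3 and H4 genes had Pol II peaks at 5 of 13 in each family. H3C2 (chr6:26031817-26032327) had the best H3 rank, at 0.186 and 0.163, and H3C12 the worst of those with a peak, at 6.31 and 1.59. H4C3 (chr6:26104161-26104565) had the best H4 rank, at 0.219 and 0.0804, and H4C11 the worst, at 21.1 and 8.25. In parental cells no Pol II summit was found at H3C4, H3C6, H3C7, H3C8, H3C11, H3C13, H3C14 and H3C15, nor at H4C1, H4C4, H4C5, H4C7, H4C9, H4C13, H4C14 and H4C15.

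Most members without summits lay in runs, while H1-1, H1-6 and H4C9 each stood alone between members with summits. No summit in any of the 18 lists was found near 24 members (37.5%, beside 32.2% of all protein-coding genes): 4 H1, 4 H2A, 2 H2B, 7 H3 and 7 H4 genes. The longest stretch, chr6:26184487-26274145, spanned 89.7 kb in the first cluster and held the start sites of 12 members from H4C4 to H2BC10, including H1-3, without a single summit. H2BC10, at its edge, had a summit within 1000 bp in 1 library, an H3K9Ac library of SAP30-KO1 cells (rank 93.4). Stretches at least this long were not rare, as 7547 of the 522888 gaps between neighbouring summits were longer (1.44%), but only 31 gaps held as many protein-coding start sites. A second stretch, chr6:27808513-27856693 in the third cluster, held H2AC16, H1-5, H3C11 and H4C13 over 48.2 kb. Unique sequence was not scarce there, since 96.3% of the 50-base words of the longest stretch and 93.7% of those of the second occurred once in the genome. On chromosome 1, 29.8 kb around H4C14 and H3C14 and 33.4 kb around H3C15 and H4C15, which begins at the start of H2AC19, were also free of summits, and there 7.78% and 22.5% of the words occurred once. The large chromosome 1 cluster is partly duplicated, and reads from identical copies cannot be told apart. H2AC25 and H2BC26, the small chromosome 1 cluster, lay in a further summit-free stretch of 50.6 kb, where 96.1% of the words occurred once. The cause of the missing summits was not tested.

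**Figure D2:**
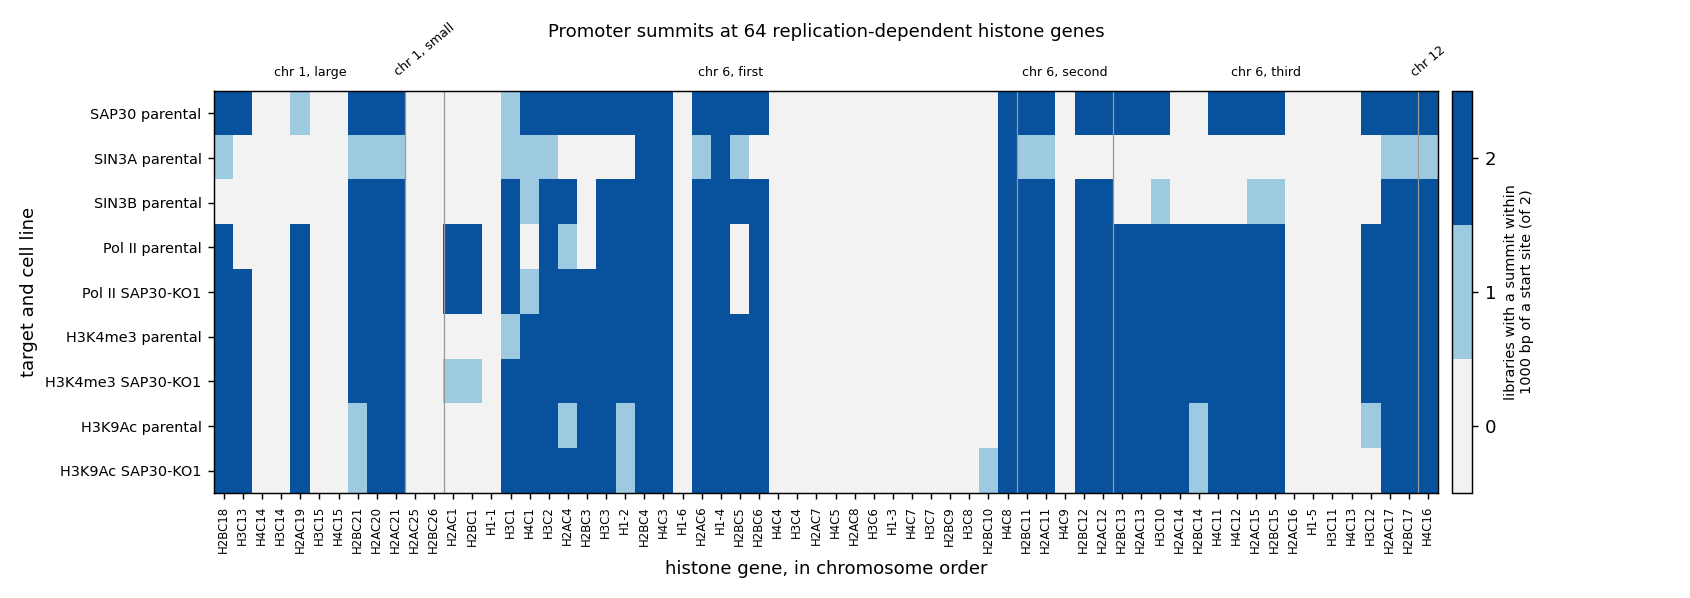
Number of libraries, of 2, with a summit within 1000 bp of a start site of each of the 64 histone genes, in order of gene start along the chromosomes, for the 9 groups of libraries. Dark cells mark both libraries, and the pale block in the first chromosome 6 cluster is the run of members from H4C4 to H3C8 with no summit in any list.

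SAP30 was found at more members than SIN3B, and SIN3B at more than SIN3A, in lists of unequal length (35001 and 35007, 26307 and 22298, and 11115 and 10861 summits). With every list cut to the length of the shortest, the counts were 16, 7 and 3 members. The shares of all genes under this cut are not given here. At full length all genes had the same order (61.2%, 51.7% and 31.5%), so the order does not set the histone genes apart. SAP30 peaks were present in both replicates at 33 members (51.6%, beside 61.2% of all genes), with a median rank of 32.6 and 31.0 against 17.2 and 17.6 over all genes. SIN3B peaks were present at 22 members (34.4%, beside 51.7%). SIN3A peaks were present in both replicates at 4 members (6.25%, beside 31.5%): H2BC4, H4C3, H1-4 and H4C8, which were the only members with a peak in all 18 lists (6.25%, against 28.6% of all genes). A SIN3A peak was found in replicate 1 only at 9 members (14.1%, against 7.16% of all genes) and in replicate 2 only at 5 (7.81%, close to the 6.28% of all genes). At H2BC4 the SIN3A rank was 16.1 in replicate 1 and 57.0 in replicate 2, and at H1-4 it was 99.7 and 55.4. The H2BC4 summits were not at the same place, 340 bp upstream of its canonical start site in replicate 1 and 879 bp downstream in replicate 2. SAP30 and SIN3B without SIN3A in both replicates were found at 17 members (26.6%, against 20.5% of all genes).

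The pair H2BC4 and H2AC6 had the best mean SAP30 rank, with 12.6 and 11.7 in the 2 replicates. At H3C2 the replicates lay farther apart, with 5.24 and 22.0. Pol II with SAP30 was found at 28 members (43.8%, against 56.2% of all genes) and Pol II without SAP30 in both replicates at 6 (9.38%, against 1.45%). Those 28 had a median parental Pol II rank of 0.456 and 0.45, and the other 6 had 37.8 and 33.3. Those 6 rested on 4 distinct summits, at H2AC19, H3C1, the pair H2AC1 and H2BC1 and the pair H2AC14 and H2BC14, and ran from 1.42 (H3C1) to 68.5 in replicate 1, with none between 7.20 and 68.5. All 33 members with SAP30 had H3K4me3 in both parental replicates and 29 had H3K9Ac. The shares over all genes with SAP30 are not given here, so these counts do not set the histone genes apart. In 5 members H3K4me3 was found without Pol II (7.81%, close to the 7.13% of all genes), and in 3 members Pol II without H3K4me3 (4.69%, against 1.01%).

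The H2A and H2B genes are largely arranged as divergent pairs. There were 10 such pairs among the members, with start sites 194 to 251 bp apart, and 9 of them had a summit in at least 1 list. The exception was H2AC25/H2BC26 in the small chromosome 1 cluster. Where both genes of a pair had a promoter peak, the best summit was the same base in 116 of 126 cases over the lists (92.1%), so the members of a pair do not give separate measurements. H2BC4 and H2AC6, whose shared promoter is printed above, had the same Pol II ranks, 0.523 and 0.45 in parental and 0.405 and 0.368 in SAP30-KO1 cells.

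The best-scored summits of the marks lay over 500 bp from the canonical start site at a larger share of members than of all genes with a peak. The median Pol II summit was 65 and 50 bp downstream of the canonical start site in the parental libraries (33 and 34 bp over all genes). Parental H3K9Ac summits lay over 500 bp from the start site at 20 of 34 and 20 of 35 members (58.8% and 57.1%), against 21.3% and 21.8% of all genes with a peak. For H3K4me3 it was 10 of 36 and 8 of 37 members (27.8% and 21.6%), against 17.7% and 17.2%. Neighbouring members can share a summit, so a distance may be to a neighbour's summit. In H3K9Ac parental replicate 1, H2AC17 and H2BC17 shared a summit 283 bp from the first start site and 523 bp from the second. H2BC6 counted as over 500 bp because its best summits lay at its upstream start site. How far close neighbours and shared summits account for the larger share was not tested. H3C2 had its best-scored H3K9Ac summits 465 and 479 bp upstream of its start site, a second H3K9Ac summit 422 and 467 bp downstream, and its H3K4me3 summits 311 and 316 bp downstream. With a window of 500 bp, H3K9Ac was found in both parental replicates at 13 members. The share of all genes with this window is not given here, so this count does not set the histone genes apart.

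The clusters on chromosomes 1 and 6 were compared in parental cells by the median rank of the members with a peak. For Pol II the difference, chromosome 1 minus chromosome 6, was −0.73 ± 0.05 percentage points (SD, n = 2 libraries), with medians of 0.234 and 0.133 over 5 members on chromosome 1 and 1.00 and 0.827 over 29 and 28 members on chromosome 6. The chromosome 1 median is the 1 summit that H2BC21, H2AC20 and H2AC21 share, and the other members there were H2BC18, at 1.38 and 0.580, and H2AC19, at 68.5 and 60.4. The difference turned to 0.40 with a window of 3000 bp, and to 81.2 when members without a peak were given the worst rank. For H3K4me3 it was −1.67 ± 0.40, and 12.2 with the worst rank given to members without a peak. It was 0.11 ± 1.17 for SAP30, −2.60 ± 9.69 for SIN3B, −3.19 ± 4.11 for H3K9Ac and 27.5 ± 38.9 for SIN3A, so that for these 4 targets the difference was smaller than the spread between replicates. Pol II was found in both replicates at 5 of 12 members on chromosome 1 and 28 of 51 on chromosome 6. Of the 12 members on chromosome 1, 7 had under 50% of the 50-base words within 1000 bp of the start site found once in the genome, and none of the 51 on chromosome 6 did.

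On chromosome 1, H2BC18, H2AC19, H2AC20, H2AC21 and H2BC21 had Pol II peaks in parental cells, H3C13 had one in SAP30-KO1 cells, and H4C14, H3C14, H3C15, H4C15, H2AC25 and H2BC26 had no summit of any target. H4C16 on chromosome 12 had Pol II ranks of 0.832 and 0.811 in parental and 1.47 and 0.861 in SAP30-KO1 cells. The 3 clusters on chromosome 6 were set side by side, without a test. The median parental Pol II rank was 0.523 and 0.443 in the first cluster, 0.397 and 0.477 in the second, and 10.3 and 5.98 in the third. In the third cluster H2AC17 and H2BC17, at 0.456 and 0.354, were the only members below 1 in both libraries.

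**Figure D3:**
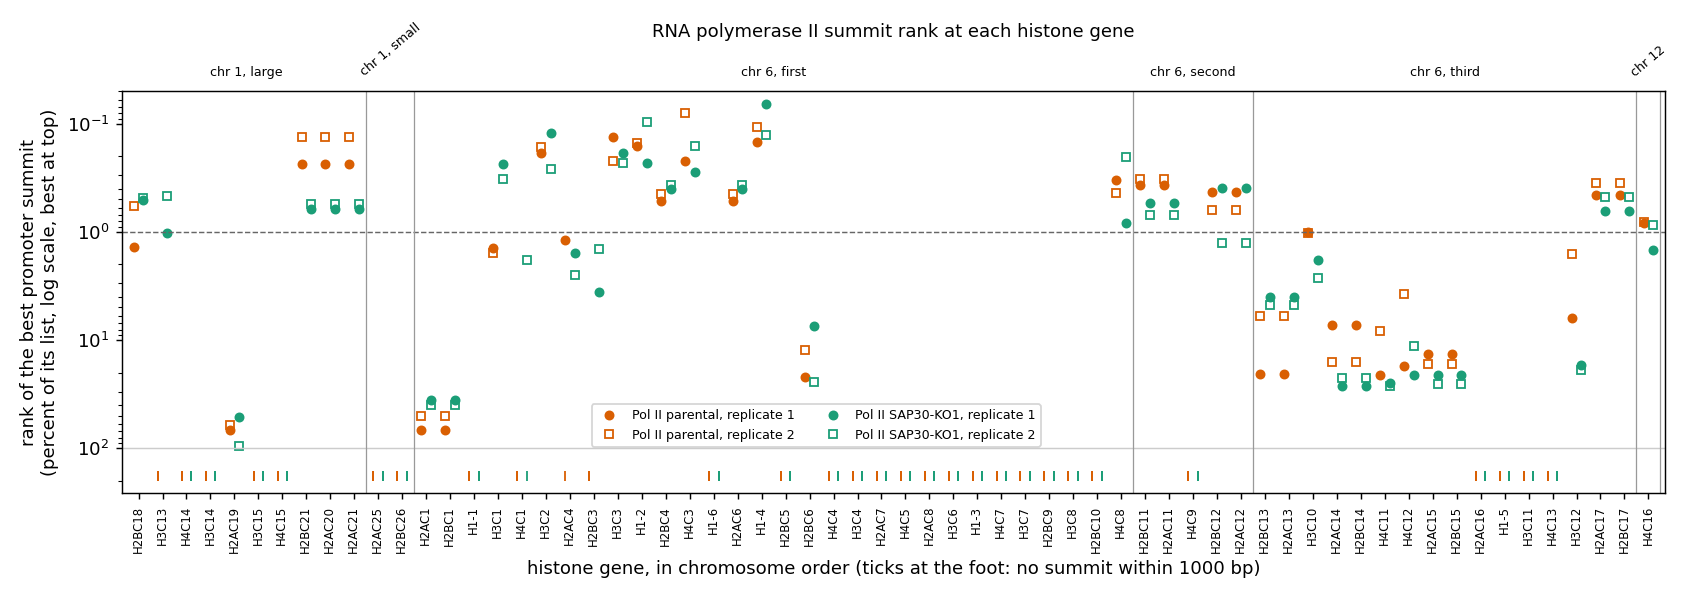
Pol II rank of the best promoter summit (percent of its list, log scale, best at top) at each of the 64 histone genes in chromosome order. Filled circles are replicate 1, open squares replicate 2, orange parental, green SAP30-KO1, the dashed line is a rank of 1, and ticks at the foot mark libraries without a summit within 1000 bp. Most members of the first and second chromosome 6 clusters with a summit lie above the line, and most of the third cluster below it.

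The comparison of SAP30-KO1 with parental cells asked whether loss of SAP30 went with a change in Pol II or in the marks at these genes. In SAP30-KO1 cells, Pol II was found in both replicates at 37 members (57.8%, beside 53.9% of all genes), H3K4me3 at 37 (62.8% of all genes) and H3K9Ac at 33 (61.1% of all genes). No member lost a Pol II, H3K4me3 or H3K9Ac peak, meaning that both parental libraries had it and both SAP30-KO1 libraries lacked it, beside 2.33%, 1.43% and 0.689% of the genes with a parental peak. H3C13 and H2BC3 had a Pol II peak in both SAP30-KO1 libraries and in neither parental library, beside 0.249% of the genes with a SAP30-KO1 peak. For H3K4me3 and H3K9Ac there was no such member, beside 0.166% and 0.538% of genes.

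At H3C13 the SAP30-KO1 Pol II ranks were 1.03 and 0.463, with summits 8 and 10 bp from the start site. The nearest parental Pol II summits were 1468 and 1450 bp from it, at the neighbouring H2BC18, whose rank was 1.38 and 0.580. At H2BC3 the SAP30-KO1 ranks were 3.60 and 1.44. Its nearest parental summits were 1809 and 1762 bp away, at H3C3, whose rank was 0.133 and 0.224. H3C13 has 27.7% unique words within 1000 bp of its start site, and H2BC3 has 94.9%.

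No histone gene passed the test between the lines. limma was fitted to the normal score of the rank over all genes with a promoter peak in all 4 libraries of a target, and p-values were adjusted by the Benjamini-Hochberg method over all of them. Of the members tested (34 for Pol II, 36 for H3K4me3, 32 for H3K9Ac), 0 had an adjusted p under 0.05. Of all genes tested, 0.0% were called with Pol II and 0.0% with H3K4me3 in either direction, and with H3K9Ac 0.0166% were called higher and 0.0% lower. An unadjusted p under 0.05 was found at 2 members with Pol II, 0 with H3K4me3 and 4 with H3K9Ac, beside 7.73%, 7.91% and 8.03% of genes. By direction, the unadjusted share of all genes was 2.31% higher and 5.43% lower for Pol II, 3.15% higher and 4.76% lower for H3K4me3, and 3.34% higher and 4.7% lower for H3K9Ac. With the log2 of the score in place of the rank, limma called H2BC3 for H3K4me3, and without SAP30-KO1 replicate 1 it called H2AC19 for Pol II.

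The 2 members with the smallest p for Pol II moved in opposite directions. H3C12, in the third cluster, had ranks of 6.31 and 1.59 in parental and 17.2 and 18.9 in SAP30-KO1 cells, a normal score lower by −0.92 ± 0.30 (SE, limma adjusted p = 0.644). H3C1, in the first cluster, had ranks of 1.42 and 1.57 in parental and 0.238 and 0.323 in SAP30-KO1 cells, a normal score higher by 0.60 ± 0.25 (SE, limma adjusted p = 0.644). Neither difference passed the test, although the libraries of the 2 lines did not overlap. For H3K9Ac the smallest p was at H2BC6, with ranks of 6.71 and 13.0 in parental and 1.72 and 2.75 in SAP30-KO1 cells (limma adjusted p = 0.48). These summits (chr6:26172493-26172549) lay at an upstream start site of the gene, far from its canonical start site at chr6:26183989. The H3K9Ac summits nearest the canonical start site ranked 50.77 and 61.65 in parental and 52.49 and 68.18 in SAP30-KO1 cells. There the 2 lines overlapped, so the better rank does not apply to the canonical H2BC6 promoter.

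The rank shifts were counted by whether the libraries overlapped. For Pol II, 8 members ranked better and 15 worse in both SAP30-KO1 libraries than in both parental ones, and 11 overlapped, beside 15.4% better and 24.2% worse over all genes. For H3K4me3, 1 was better and 15 worse of 36 (11.5% and 28.1% over all genes). For H3K9Ac, 1 was better and 15 worse of 32 (16.4% and 22.1% over all genes). The better one was H2BC6, at its upstream start site. The median change in rank was 0.21 percentage points for Pol II (1.48 over all genes), 2.79 for H3K4me3 (2.09 over all genes) and 3.54 for H3K9Ac (0.31 over all genes), where a positive value is a worse rank in SAP30-KO1 cells. Ranked among the tested genes only, the Pol II median was 0.38 and the H3K4me3 median turned to −0.38. The H3K4me3 median was 0.81 without parental replicate 1, 4.45 without parental replicate 2, 1.67 without SAP30-KO1 replicate 1 and 4.18 without SAP30-KO1 replicate 2. Percentage points compress changes near the top of a list, where most Pol II ranks of members lay. In normal scores, where a negative value is a worse rank, the median Pol II change was −0.11 (−0.065 over all genes). For H3K4me3 it was −0.071 (−0.077 over all genes) and for H3K9Ac −0.16 (−0.024 over all genes). The Pol II medians thus do not show a smaller shift at histone genes.

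The shifts in Pol II rank differed between the clusters, and this difference was not tested because members of a cluster are not replicates. In the first chromosome 6 cluster 5 of 12 tested members were better and 0 worse, with a median change of −0.06. In the third, 9 of 12 were worse and 2 better, with a median change of 6.96. Pairs counted as 2 genes there: H2AC14 and H2BC14 went from 7.20 and 15.8 to 26.3 and 22.7, and H2BC13 and H2AC13 from 20.5 and 5.98 to 4.03 and 4.77. For H3K4me3 the third cluster had 8 of 12 members worse, with a median change of 8.37. In the large chromosome 1 cluster 3 of 5 were worse for Pol II, and these 3 share 1 summit. The median changes are in percentage points, so their sizes are not alike between clusters that start at different ranks. The summit shared by H2BC21, H2AC20 and H2AC21 moved 0.40 points, a change in normal score of −0.40. H4C11 in the third cluster moved 10.9 points, a change in normal score of −0.44. The counts of better and worse members do not depend on this scale.

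**Figure D4:**
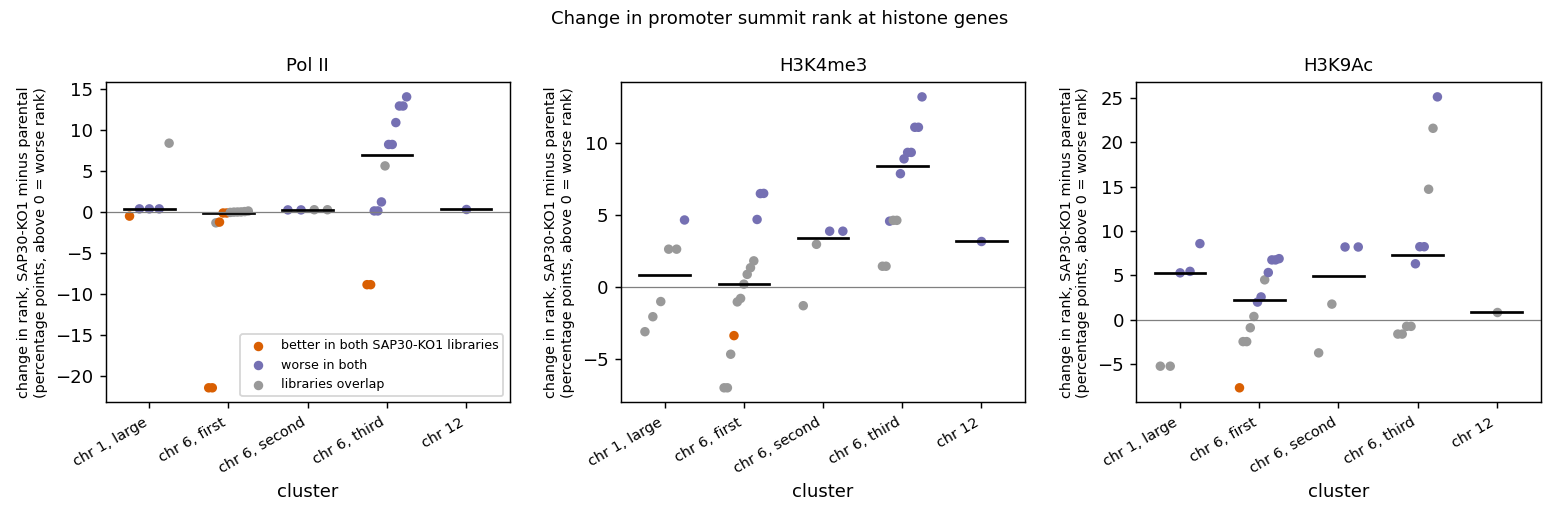
Change in the rank of the best promoter summit, SAP30-KO1 minus parental, in percentage points, for Pol II, H3K4me3 and H3K9Ac. Each point is a histone gene with a summit in all 4 libraries, coloured by whether both SAP30-KO1 libraries rank better or worse than both parental ones, and black lines are medians. The largest group of worse ranks lies in the third chromosome 6 cluster, with medians of 6.96 for Pol II and 8.37 for H3K4me3. Percentage points compress changes near the top of a list.

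More Pol II summits lay across the histone genes in SAP30-KO1 cells. Counted over each gene and 1000 bp at each side, there were 0.719 and 0.750 Pol II summits per member in the parental libraries and 1.27 and 1.20 in the SAP30-KO1 libraries. The means were 0.734 ± 0.022 and 1.23 ± 0.04 (SD, n = 2 each), a ratio of 1.68. The libraries did not overlap, but the two-sided exact permutation test gave p = 0.333, the smallest p that 2 libraries against 2 allow. The lists themselves were 1.04 times as long in SAP30-KO1 cells. For H3K4me3 the ratio was 0.993 and for H3K9Ac 1.01 (exact permutation p = 1 for both).

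The number of distinct Pol II summits in these windows was 32 and 33 in parental and 58 and 55 in SAP30-KO1 cells. Of these, 12 and 13 were in the best 1% of the parental lists and 13 and 14 in that of the SAP30-KO1 lists. In the worse 50% of the lists there were 6 and 8 in parental and 18 and 19 in SAP30-KO1 cells. Counted gene by gene, so that a summit shared by neighbours counts for each, there were 26 and 28 summits inside the genes in parental and 47 and 44 in SAP30-KO1 cells. Upstream there were 14 and 14 against 23 and 23, and downstream 6 and 6 against 11 and 10. In 13 members both SAP30-KO1 libraries had more summits than both parental libraries (20.3%), and in 0 members fewer. Over all genes the shares were 8.2% and 4.0%, counted over the canonical transcript and not the whole gene, so they are not strictly alike. The 13 include both genes of the pairs H2AC1 and H2BC1, H2BC13 and H2AC13, and H2AC14 and H2BC14. At H2AC6 and H2BC21 the rise came from the rest of the gene span, with 1 summit within 1000 bp of a start site in each library. H2AC14 and H2BC14 went from 1 and 1 to 5 and 3 summits.

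Genes of like length were counted the same way. The 46 members no longer than 1000 bp had 0.554 Pol II summits per gene in parental and 0.978 in SAP30-KO1 cells, a ratio of 1.76. The 464 other genes of that length had 0.127 and 0.139, a ratio of 1.09. Among those with a summit, 23.4% and 29.5% had 2 or more in parental and 42.5% and 40.5% in SAP30-KO1 cells. For the short members with a summit it was 4.17% and 13.0%, then 44% and 50%. Within 1000 bp of the canonical start site, the 64 members had 0.586 and 0.945 summits per gene, a ratio of 1.61. The 20034 other protein-coding genes had 0.688 and 0.818, a ratio of 1.19. Among members in the best 1% of both parental Pol II lists (18 genes), the number within 1000 bp of the canonical start site was 1.06 in both lines. Among 147 other genes in the best 1%, it was 1.15 in parental and 1.74 in SAP30-KO1 cells. Over the gene and 1000 bp at each side, those 18 members had 22 and 23 summits in parental and 28 and 29 in SAP30-KO1 cells.

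**Figure D5:**
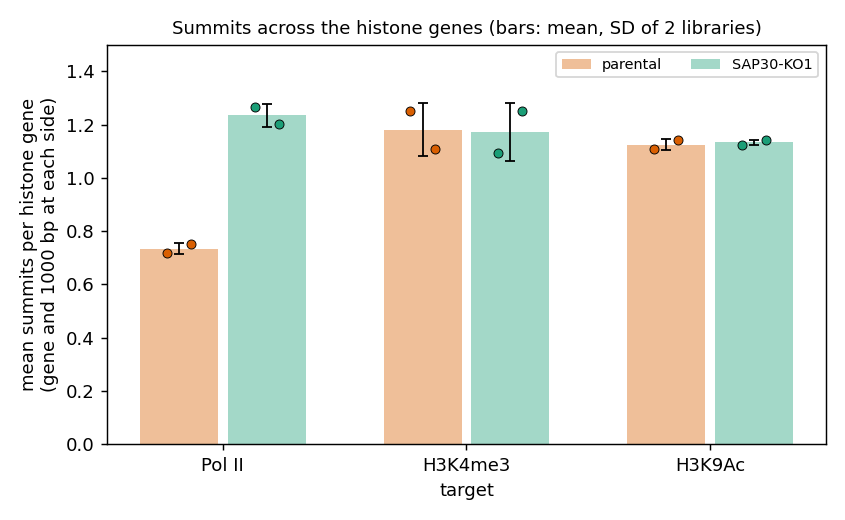
Mean number of summits per histone gene, over the gene and 1000 bp at each side, for Pol II, H3K4me3 and H3K9Ac. Bars are means of 2 libraries, error bars the SD and points the libraries, orange parental and green SAP30-KO1. For Pol II both SAP30-KO1 libraries (1.27 and 1.20) lie above both parental libraries (0.719 and 0.750), and for the marks the lines overlap.

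A list of 33 genes joined those of the histone locus body and histone mRNA processing, such as NPAT, CASP8AP2, SLBP and LSM11, with transcription factors and cell-cycle regulators, such as HINFP, POU2F1, YY1, E2F1, CDK2 and CDC25A. All 33 had Pol II and SAP30 in both parental replicates and 23 had SIN3A. Their median mean Pol II rank was 21.6, and 0 were in the best 1%, against 19 of the 34 histone genes. LSM11, a protein of the U7 snRNP that cleaves histone mRNA precursors, lacked a Pol II summit in SAP30-KO1 replicate 1.

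A list of other histone genes, mainly replication-independent variants, was intermediate. Of 14 found, 10 had Pol II in both parental replicates, with a median rank of 2.87. H2AX, whose mRNA can end in a stem-loop, had ranks of 0.258 and 0.207 in parental and 0.780 and 1.00 in SAP30-KO1 cells, and H3-3B, a gene for the variant H3.3, had 0.810 and 0.767 in parental and 0.255 and 0.838 in SAP30-KO1 cells. MACROH2A2, H2BC12L, H3-4 and H3-5 had no Pol II summit.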

How the data were processed

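ChIP-seq libraries were grouped by target and cell line as the labels give them. The deposited files are MACS2 summit lists, 1 bp per peak, called by the authors for each library by itself, and their values are the −log10 of the q-value (lowest 1.30). Per the labels, reads were processed with FastQC 0.11.2, Bowtie2 2.3.3.1, Picard and MACS2 2.1.0 on hg19. MACS2 options, controls and depth are not given in the sources used here, so scores were ranked within a list (ties averaged) and no interval or floor was computed. The 12 input and total H3 samples were not analysed here.

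Start sites of basic transcripts in GENCODE 44 (lifted to GRCh37) were used with a window of 1000 bp. SAP30-KO1 was compared with parental by limma 3.58.1 in R 4.3.3 on normal scores of the ranks, checked on simulated data, and by exact permutation over libraries (SciPy 1.17.1). Nothing in the labels says the replicates are separate cultures, so p-values measure the spread between these libraries. Sequences were read from GRCh37, and a 50-base word was called unique where it or its reverse complement occurred once. The members and lists were chosen with earlier results of these data known. Genes named were all H1 genes, in each core family the best and worst parental Pol II ranks and genes without a parental Pol II peak, genes past the limma threshold, genes that gained or lost a peak, and all members outside chromosome 6. Other genes, among them those with the smallest unadjusted p, were named after their values were seen.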

Additional observations from a re-analysis of the deposited data

How the results depend on the processing

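Windows of 500 and 3000 bp, canonical start sites, shortened lists, other scales and each library left out were tried, and 136 of the 174 values kept within the spread or the 1.5-fold limit. Counts of members with a peak fell with the better-ranked 50% of each list for SIN3A (0), SIN3B (10), H3K4me3 (18 parental, 16 SAP30-KO1), and with lists cut to the shortest one for SAP30 (16), SIN3B (7), H3K4me3 (14 parental, 16 SAP30-KO1) and H3K9Ac (19 parental, 16 SAP30-KO1). A 500-bp window gave 13 parental and 18 SAP30-KO1 members for H3K9Ac. SIN3A had 9 members without replicate 1 and 13 without replicate 2, against 4 in both. Fewer peaks or a narrower window make these counts lower by construction, and other causes were not tested. The shares of all genes at these settings are not given here. limma called 1 member for H3K4me3 on the log2 score (H2BC3, among 144 genes) and 1 for Pol II without SAP30-KO1 replicate 1 (H2AC19, among 711 genes, the lone library being assumed to vary like the parental ones), and 0 otherwise. The range over libraries left out was 0 to 1 for Pol II. The Pol II median change was 0.38 when genes were ranked among the tested genes only.

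The Pol II ratio of summits per gene stayed between 1.51 and 1.72. The H3K4me3 ratio passed 1 with lists of equal length (1.01) and ran from 0.927 to 1.06 with a library left out. The H3K9Ac ratio fell under 1 on the gene span alone (0.919) and with 500 bp at each side (0.990), and ran from 0.993 to 1.02 with a library left out (1.00 without SAP30-KO1 replicate 2). The difference between chromosomes 1 and 6 moved for SAP30 to 3.53 (500 bp), 8.75 (3000 bp), −2.41 (repeated sequence left out) and 33.4 (missing peaks given the worst rank). It moved for Pol II to −0.39, 0.40 and 81.2 (500 bp, 3000 bp, worst rank), for H3K4me3 to −1.09, −0.70, −1.06 and 12.2 (500 bp, 3000 bp, repeated sequence, worst rank), and for H3K9Ac to 2.54, 2.32 and 40.6 (500 bp, 3000 bp, worst rank). The cause was not tested.

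The deviations of same-numbered replicates correlated at 0.014, −0.0092 and −0.0056 over genes for Pol II, H3K4me3 and H3K9Ac. These values are from ranks within each list, so they cannot show whether same-numbered libraries shared a culture or batch. With a replicate block limma called 0 members for each target, and the median changes were 0.19, 3.35 and 3.0. Having 2 libraries a group, unknown depth and 1 summit per peak limits all these values.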

Other observations

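The annotation gave 2 further histone genes under older symbols that the rule did not match. HIST1H4B (chr6:26027124-26027480), an H4 gene in the first chromosome 6 cluster, had a promoter summit in 17 of the 18 lists, and HIST2H2AA3 (chr1:149813505-149814478), an H2A gene in the large chromosome 1 cluster, had one in 12.

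Non-histone genes between the histone genes carried few summits. Of 8 such genes, 2 had a Pol II promoter peak in both parental replicates. TRIM38, a ubiquitin ligase gene, had Pol II ranks of 22.0 and 18.1 in parental and 29.4 and 13.0 in SAP30-KO1 cells. HFE, the hemochromatosis gene, had ranks of 61.1 and 55.1 in parental and 67.8 and 96.0 in SAP30-KO1 cells. The others, FCGR1A, SLC17A1, SLC17A2, SLC17A3, SLC17A4 and ENSG00000282988, had no Pol II promoter summit in any library.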
